A study of Mus musculus with 15 samples.

Results

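The 6 genes described here, called the members, were followed across 15 RNA sequencing libraries of mouse CD8+ T cells: the scavenger receptor cysteine-rich (SRCR) genes 5830411N06Rik and Cd163l1, the T cell receptor gamma chain constant genes Tcrg-C1, Tcrg-C2 and Tcrg-C4, and the PDZ and LIM domain gene Pdlim4. They are 6 of 55536 annotated genes in the count table and were selected on these same counts, for being lower after antigen, so their levels in antigen-treated against Naive libraries are a description without a test. All 6 members passed the filter on low counts, as did 17366 genes in all. The working name of the set calls these genes lost, which did not hold for Tcrg-C4: it kept a mean of 11.8 CPM (counts scaled to a common library total) after antigen and 15.3 CPM after antigen with costimulation, against 22.8 CPM in Naive cells.

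The cells came from OT-I mice on the C57BL/6J background, whose T cells carry a transgenic alpha-beta receptor (Vα2, Vβ5) for the ovalbumin peptide SIINFEKL; the study's methods list OT-I lines that are Rag1-/- or Rag2-/- and so cannot rearrange receptor genes of their own. Naive libraries (n = 5) came from untreated OT-I mice whose cells were not transferred. For Ag libraries (n = 5), OT-I cells were moved into wild-type C57BL/6J recipients, which received the peptide with rat IgG, and for Ag+Costim libraries (n = 5) the recipients received the peptide with agonist antibodies to CD134 (OX40) and CD137 (4-1BB). Per the labels, transferred cells were taken from spleen and lymph nodes at day 4 and sorted, while the study's methods give an earlier time. The methods describe a gate on CD8, CD45.1, Vα2 and Vβ5 for transferred cells, and do not give the age of the mouse behind each library. A transferred library therefore differs from a Naive one in the transfer, the host and the gate as well as in antigen, and these cannot be told apart.

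Total estimated counts ran from 4865952 (Ag 3) to 25280667 (Naive 3) per library, with a median of 14967616. Ag 3 stood apart, with 16.9% of its sequenced reads counted (37.4% to 53.6% for the rest of its group), and Naive 5 was the lowest Naive library for 5 of the 6 members. All Naive libraries were sequenced on lane 3 and all Ag libraries on lane 2, so lane and antigen cannot be told apart in Ag against Naive, while the Ag+Costim group was split, replicates 1 to 3 running on lane 2 and the other two on lane 3. The summed level of 6 CD8+ alpha-beta T cell markers was 5354 to 12475 CPM across the 15 libraries, so the markers of the labelled cell type were present in every library. The lowest value was that of Ag 3, and Naive 5 held 6697 CPM against 9183 to 10888.5 CPM in the other Naive libraries. In bulk RNA, fewer cells of a type and less RNA per cell cannot be told apart, and this holds for each difference below.

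The T cell receptor gamma chain pairs with the delta chain on gamma-delta T cells, and its locus on mouse chromosome 13 holds repeated clusters, each with its own variable, joining and constant segments. A constant gene can be transcribed without a productive rearrangement, so its RNA does not by itself mark a gamma-delta receptor. Cd163l1 and 5830411N06Rik, known under the synonyms Scart1 and Scart2, encode transmembrane proteins with SRCR domains related to the haptoglobin-hemoglobin receptor CD163, and both are known from gamma-delta T cells. Pdlim4 (synonym Ril) encodes an actin-associated adaptor that binds alpha-actinin and can carry other proteins to the cytoskeleton.

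The gamma chain constant genes resemble each other, which sets how far their counts can be separated. The first 90 bases of each transcript are shown because they lie in the constant region exon that joins the rearranged gene; capitals mark bases that differ from Tcrg-C1, in the GENCODE M21 transcripts (GRCm38). Positions are chr13:19214103-19214192 (plus strand) for Tcrg-C1, chr13:19307462-19307551 (minus strand) for Tcrg-C2, chr13:19260885-19260974 (plus strand) for Tcrg-C3 and chr13:19344558-19344647 (plus strand) for Tcrg-C4.
Tcrg-C1: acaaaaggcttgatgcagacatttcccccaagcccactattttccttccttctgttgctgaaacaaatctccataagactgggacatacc
Tcrg-C2: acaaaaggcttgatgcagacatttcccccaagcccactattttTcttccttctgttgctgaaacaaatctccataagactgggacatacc
Tcrg-C3: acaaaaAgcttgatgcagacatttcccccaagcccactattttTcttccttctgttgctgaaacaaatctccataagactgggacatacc
Tcrg-C4: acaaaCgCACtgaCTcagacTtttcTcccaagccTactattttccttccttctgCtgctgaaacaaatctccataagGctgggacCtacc

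In this stretch Tcrg-C2 differed from Tcrg-C1 at 1 position (C44T, counted from the first base shown), Tcrg-C3 at 2 and Tcrg-C4 at 12. Over the whole transcripts, 96.0% of aligned bases were identical between Tcrg-C1 and Tcrg-C2, against 67.5% between Tcrg-C1 and Tcrg-C4. Of all stretches of 50 bases, taken as the length of the reads, 29.6% in Tcrg-C1, 25.4% in Tcrg-C2 and 36.2% in Tcrg-C3 occurred letter for letter in another gamma constant transcript, and 0 of 936 in Tcrg-C4. The paper's methods give a longer length for its single reads, and longer stretches were not searched. The separate values of Tcrg-C1 and Tcrg-C2 are therefore uncertain, because reads can be shared between them, and those of Tcrg-C4 are not touched by this. Between the coding transcripts Cd163l1-201 and 5830411N06Rik-203, 66.7% of aligned bases were identical, and no stretch of 50 bases was shared.

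5830411N06Rik (ENSMUSG00000054672.13, chr7:140247284-140300736, plus strand) had the highest Naive level of the 6. Its Naive libraries 1 to 5 held 194, 66.7, 158, 277 and 21 CPM. The Ag libraries held 4.01, 3.11, 4.73, 3.44 and 2.33 CPM and the Ag+Costim libraries 1.84, 1.94, 2.14, 2.12 and 1.84 CPM. Every Naive library was above every antigen-treated library, and the lowest Naive library was Naive 5. The group means were 143 ± 102, 3.52 ± 0.905 and 1.97 ± 0.148 CPM (SD, n = 5), and the log2 fold change from edgeR was -5.26 (SE 0.54) in Ag against Naive and -5.99 (SE 0.55) in Ag+Costim against Naive.

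Cd163l1 (ENSMUSG00000025461.11, chr7:140218267-140231145, plus strand) lies next to 5830411N06Rik on the same strand. Its Naive libraries 1 to 5 held 98.7, 44.9, 64.7, 115 and 23.5 CPM. The Ag libraries held 4.77, 2.66, 8.01, 3.06 and 2.89 CPM, and the Ag+Costim libraries 4.63, 4.42, 5.28, 4.00 and 2.95 CPM. The order of the Naive libraries was the same as for 5830411N06Rik from the highest (Naive 4) to the lowest (Naive 5), the groups did not overlap with Naive, and the highest Ag value was that of Ag 3. The log2 fold change was -3.97 (SE 0.42) in Ag and -3.85 (SE 0.41) in Ag+Costim against Naive.

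Tcrg-C1 (ENSMUSG00000076749.2, chr13:19214103-19217024, plus strand) had 12.1, 9.58, 14.7, 17.3 and 4.74 CPM in Naive libraries 1 to 5. In Ag libraries it had 1.81, 0.324, 0.822, 1.30 and 0.50 CPM, and in Ag+Costim libraries 0.317, 0, 0.134, 0.182 and 0.393 CPM, where the 0 in Ag+Costim 2 allows up to 0.233 CPM (3 counts, counting error only). Naive lay above both other groups without overlap, and of the Ag libraries Ag 2 alone lay within the range of Ag+Costim. The log2 fold change was -3.57 (SE 0.53) in Ag and -5.58 (SE 0.60) in Ag+Costim against Naive.

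Tcrg-C2 (ENSMUSG00000076752.2, chr13:19304649-19307551, minus strand) was the least abundant member in Naive cells, with 3.29, 2.72, 3.68, 4.42 and 2.24 CPM. Its Ag libraries spread over 2.67, 0.584, 2.67, 0.918 and 0.167 CPM, so that Ag 1 and Ag 3 lay above Naive 5. The Ag+Costim libraries held 0.444, 0.233, 0.601, 0.242 and 0.197 CPM, all below Naive. The log2 fold change was -1.21 (SE 0.56) in Ag and -3.06 (SE 0.61) in Ag+Costim against Naive.

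Tcrg-C4 (ENSMUSG00000076757.9, chr13:19344558-19352756, plus strand) differed least between the groups. Naive libraries 1 to 5 held 14.5, 25.3, 25.9, 28.3 and 19.9 CPM, Ag libraries 7.25, 11.5, 13.8, 10.4 and 16.3 CPM, and Ag+Costim libraries 14.5, 17.3, 14.9, 16.1 and 14 CPM. Both antigen-treated groups overlapped Naive, whose lowest library here was Naive 1 and not Naive 5. The log2 fold change was -0.81 (SE 0.24) in Ag and -0.42 (SE 0.24) in Ag+Costim against Naive.

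Pdlim4 (ENSMUSG00000020388.12, chr11:54054928-54069014, minus strand) was nearly constant in Naive libraries 1 to 4, at 42.4, 39.3, 42.6 and 43.5 CPM, and at 8.23 CPM in Naive 5. Ag libraries held 2.0, 0.454, 5.75, 2.07 and 1.61 CPM and Ag+Costim libraries 1.27, 0, 1.34, 1.03 and 1.31 CPM. Every Naive library was above every antigen-treated one, though Naive 5 was close to Ag 3. The log2 fold change was -3.90 (SE 0.68) in Ag and -4.96 (SE 0.71) in Ag+Costim against Naive.

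**Figure D1:**
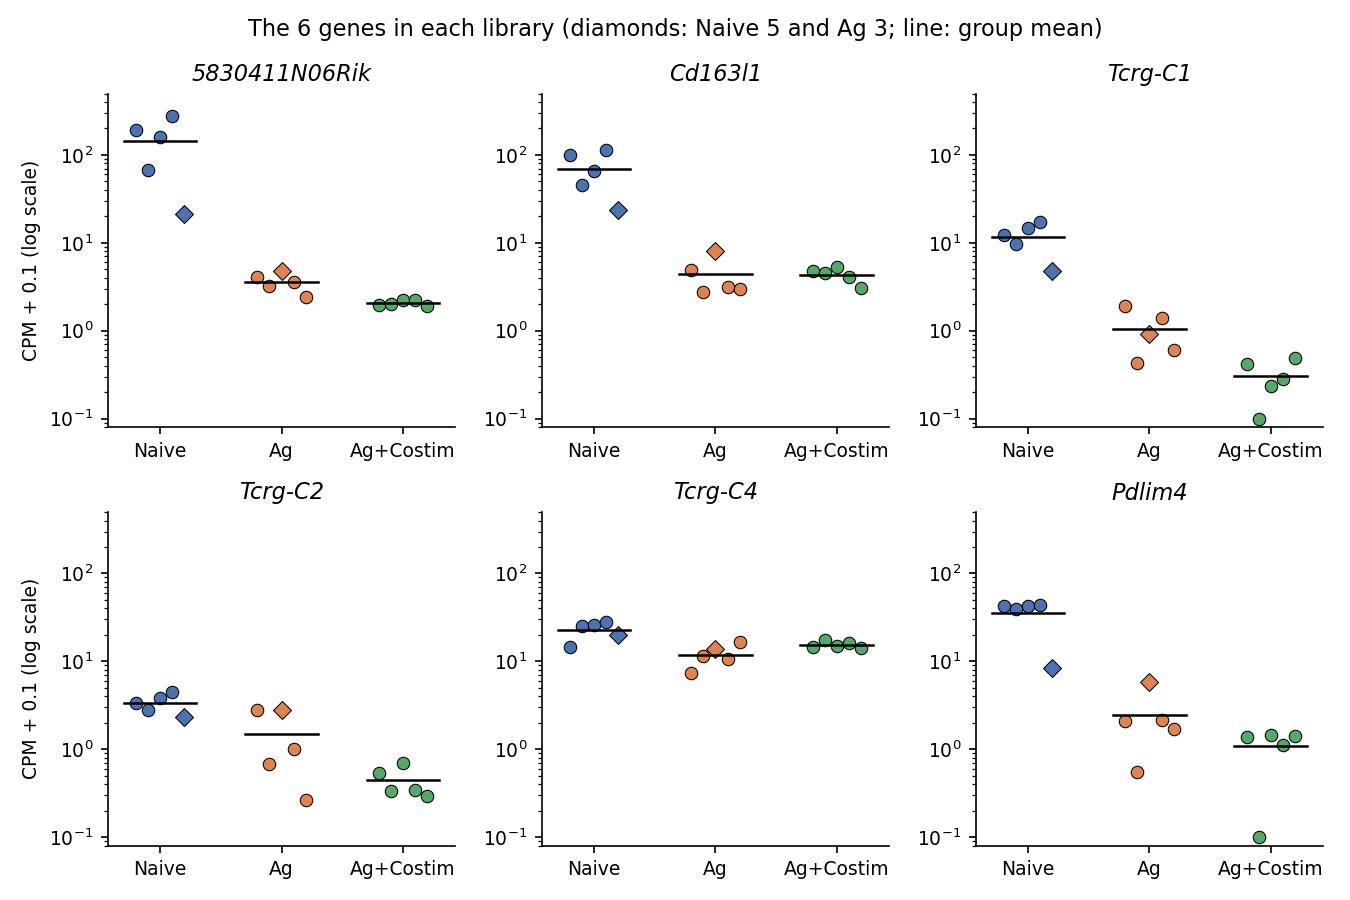
CPM plus 0.1 on a log axis for each of the 6 members, one point per library, with the group mean as a line and diamonds for Naive 5 and Ag 3. In 5 panels every Ag+Costim point lies below every Naive point, while Tcrg-C4 stays between 7.25 and 28.3 CPM in all libraries.

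Over the 6 members, the median log2 fold change was -3.73 in Ag and -4.40 in Ag+Costim against Naive, where the medians over all 17366 genes were 0.08 and -0.08. In Ag against Naive, 4 of 6 members were lower with no overlap of CPM between the groups (all genes, 2.26%), the exceptions being Tcrg-C2 and Tcrg-C4; 3.66% of all genes were called lower. In Ag+Costim against Naive it was 5 of 6, all but Tcrg-C4 (all genes, 27.3%), and 23.6% of all genes were called lower. These counts restate the choice of the members and nothing is read from them.

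Levels per kilobase of annotated exon allow the genes to be ordered within a group. In Naive cells the order was 5830411N06Rik (25.9 ± 18.4 CPM per kb), Tcrg-C4 (23.1 ± 5.61), Cd163l1 (18.0 ± 9.78), Pdlim4 (13.8 ± 5.92), Tcrg-C1 (12.7 ± 5.23) and Tcrg-C2 (3.58 ± 0.923), with SD over 5 libraries. Neighbours in this order lay within 1 SD of each other down to Tcrg-C1, and Tcrg-C2 lay below by more. After antigen Tcrg-C4 was first in both groups, at 12.0 ± 3.48 CPM per kb in Ag and 15.6 ± 1.36 in Ag+Costim. The other members lay between 0.637 and 1.53 CPM per kb in Ag and between 0.222 and 1.11 in Ag+Costim, where Cd163l1 was second.

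Ag+Costim against Ag asks whether the members differed when costimulation was added to antigen. It shares the Ag libraries on which the members were picked. None of the 6 members was called at a false discovery rate (FDR) under 0.05 in edgeR's quasi-likelihood test over all genes, where 0.00576% of all genes were called lower and 0.0288% higher. The log2 difference was -2.02 for Tcrg-C1 (95% interval -3.28 to -0.76, edgeR FDR 0.0826) and -1.85 for Tcrg-C2 (-3.13 to -0.56, edgeR FDR 0.0906). Both had an unadjusted p under 0.05, as did 19.5% of all genes in the lower direction, and both were called by DESeq2 (adjusted p 0.0135 and 0.0290). Over all genes, DESeq2 called 4743 of 27085 lower in this comparison.

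The 95% intervals of the other 4 members spanned 0. The log2 difference was -0.73 (-1.81 to 0.34) for 5830411N06Rik, 0.11 (-0.73 to 0.96) for Cd163l1, 0.40 (-0.11 to 0.91) for Tcrg-C4 and -1.06 (-2.53 to 0.42) for Pdlim4. With 1 library left out it ran from 0.01 (without Ag 4) to 0.44 (without Ag 3) for Cd163l1, from 0.23 (without Ag 1) to 0.61 (without Ag 5) for Tcrg-C4 and from -1.18 (without Ag 2) to -0.51 (without Ag 3) for Pdlim4, and none of the 4 was called. Only 5830411N06Rik was lower in Ag+Costim without overlap of CPM, 1 of 6 members, against 2.2% of all genes.

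The call on Tcrg-C1 and Tcrg-C2 turned on single Ag libraries. Without Ag 2 the edgeR FDR was 0.0343 for Tcrg-C1 and 0.0487 for Tcrg-C2, and without Ag 5 it was 0.0316 and 0.0222. Over all genes, 1714 of 18092 were called lower without Ag 2 and 2817 of 18108 without Ag 5. Within lane 2 (3 Ag+Costim and 5 Ag libraries) the log2 difference was -2.44 for Tcrg-C1 and -1.55 for Tcrg-C2, with an edgeR FDR of 0.628 and 0.629 on fewer libraries; with lane as a term the FDR was 0.355 and 0.367. Ag 1, Ag 3 and Ag 4, the Ag libraries with the higher Tcrg-C1 and Tcrg-C2, also had the higher summed level of 5 B cell markers, at 151, 341 and 179 CPM against 14.7 in Ag 2 and 18.2 in Ag 5; none of these markers was at 0 over the group, and Ag+Costim libraries ran from 12.8 to 29.9 CPM. Ag 1 and Ag 4 also held 5507 and 5547 CPM summed over 12 genes of naive and quiescent T cells. Ag 2, Ag 3 and Ag 5 held 1961, 1872 and 1732 CPM of these. The part of the B cell and naive T cell values in the result was not tested.

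**Figure D2:**
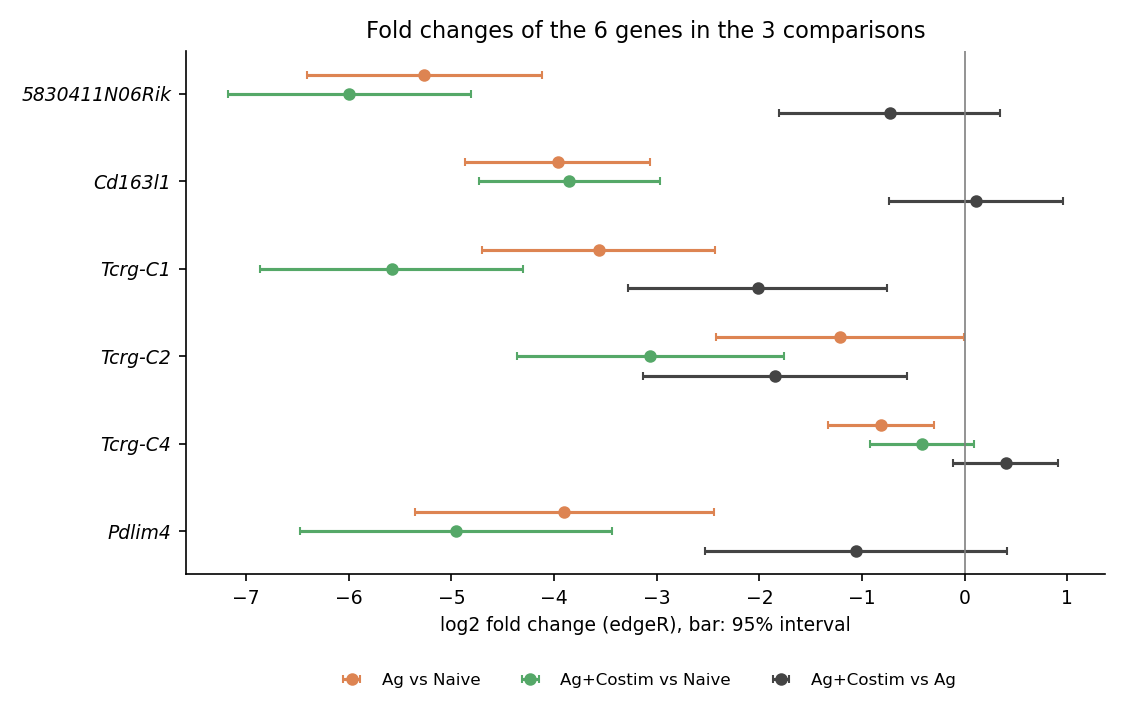
Log2 fold change of each member in the 3 comparisons, from edgeR, with bars for the 95% interval. The points for Ag and Ag+Costim against Naive lie left of 0, from -5.99 to -0.42, and in Ag+Costim against Ag the intervals of Tcrg-C1 and Tcrg-C2 lie below 0 without passing the FDR threshold.

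The mean share of Tcrg-C4 among the counts of the 3 gamma constant genes was lowest in Naive and highest in Ag+Costim. Tcrg-C4 held 61.0% ± 9.88 of their counts in Naive libraries, 82.5% ± 13.5 in Ag ones and 96.5% ± 1.54 with costimulation (SD, n = 5), and Tcrg-C1 held 30.3% ± 8.87, 7.21% ± 5.54 and 1.35% ± 1.06. Tcrg-C2 held 8.74% ± 1.38, 10.2% ± 8.79 and 2.18% ± 1.14. Only Ag+Costim against Ag was tested. There the difference in share was 13.9 points for Tcrg-C4 (exact permutation p = 0.0317, adjusted over 7 share tests 0.0741), -5.87 points for Tcrg-C1 (exact permutation p = 0.0159, adjusted 0.0556) and -8.06 points for Tcrg-C2 (exact permutation p = 0.0556, adjusted 0.0972). None passed after adjustment.

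**Figure D3:**
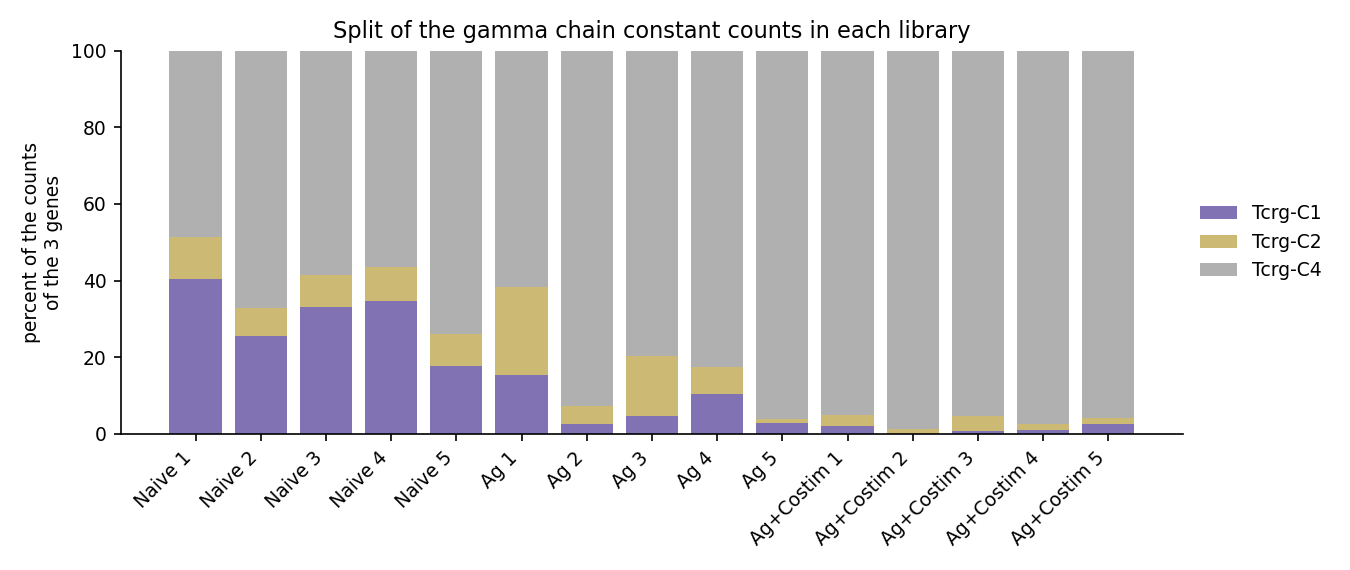
Percent of the summed Tcrg-C1, Tcrg-C2 and Tcrg-C4 counts held by each gene, one stacked bar per library. Tcrg-C4 takes 48.5% to 74.0% in Naive libraries, 61.8% to 96.1% in Ag and 95% to 98.7% in Ag+Costim.

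Within the scavenger receptor pair, 5830411N06Rik held 63.0% ± 9.91 of the counts in Naive libraries, 46.9% ± 6.87 in Ag ones and 32.2% ± 4.25 with costimulation. The difference of -14.7 points, Ag+Costim minus Ag, had an exact permutation p of 0.0159 and an adjusted p of 0.0556. The highest Ag+Costim library (38.4%) was above only the lowest Ag library, Ag 3 (37.1%).

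Transcript counts showed that what remained of both scavenger receptor genes after antigen was mostly assigned to annotated transcripts with a retained intron. In Naive libraries, coding transcripts held 89.97% of the Cd163l1 counts pooled over the group, against 11.3% in Ag and 28.1% in Ag+Costim. The main coding transcript, Cd163l1-201, had 1355, 453, 1544, 1432 and 53 counts in Naive libraries 1 to 5. It had 12, 6, 0, 0 and 7 counts in the Ag libraries and 12, 16, 39, 23 and 0 in the Ag+Costim libraries.

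Cd163l1-207 keeps the fifth intron of Cd163l1-201 (123 bases, chr7:140224197-140224319). That intron is not their only difference: they are 3621 and 3454 bases long and end at 140231136 and 140231145. Cd163l1-207 had 43, 66, 54, 32 and 287 counts in Naive libraries 1 to 5, and 37, 35, 38, 40 and 44 in the Ag libraries. In Ag+Costim it had 59, 40, 39, 41 and 45 counts. Its counts in the 10 antigen-treated libraries thus spanned a 1.69-fold range, and library totals spanned a 3.70-fold range. The wider range of the totals rests on Ag 3 (4865952), as the other antigen-treated libraries held 10479358 to 18004241. Naive 5 was set apart: Cd163l1-201 made up 14.8% of its Cd163l1 counts (exact binomial 95% interval 11.3% to 19.0%), and 83.3% to 94.8% in the other Naive libraries.

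For 5830411N06Rik the transcript with the highest count was 5830411N06Rik-204, which keeps introns 7 and 8 of the coding transcript 5830411N06Rik-203 (866 and 140 bases). It had 1876, 525, 1415, 2043 and 202 counts in Naive libraries 1 to 5. The Ag libraries had 36, 39, 21, 43 and 34 counts of it and the Ag+Costim libraries 19, 11, 29, 35 and 20. The coding transcripts held 36.8% of the pooled Naive counts of the gene, 4262 in number, and 0 counts in all 5 Ag libraries. The 0 is an assignment and not an absence of reads, since the gene had 200 counts in Ag, and no fold is given from it. In Ag+Costim they had 13 counts, all in Ag+Costim 2. From the coding transcripts alone, the log2 difference between Ag+Costim and Ag was 4.51 for 5830411N06Rik (edgeR FDR 0.355), opposite in sign to that of the whole gene and resting on those 13 counts, and 1.61 for Cd163l1 (edgeR FDR 0.317).

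For Pdlim4 the coding transcript Pdlim4-201 held most of the counts in each group, with 90.7% ± 3.84 in Naive (n = 5), 72.8% ± 23.7 in Ag and 94.8% ± 7.08 in Ag+Costim (n = 4 each, libraries with at least 10 counts). In Ag+Costim against Ag, the share of the main transcript did not pass in any of these genes (exact permutation p = 0.238 for 5830411N06Rik, 0.151 for Cd163l1 and 0.257 for Pdlim4; adjusted 0.257, 0.211 and 0.257). Counts per transcript are estimates from short single reads, which cannot always tell such transcripts apart. With the coding transcripts alone the log2 fold change in Ag against Naive was -7.12 for Cd163l1, a value that depends on the prior count.

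**Figure D4:**
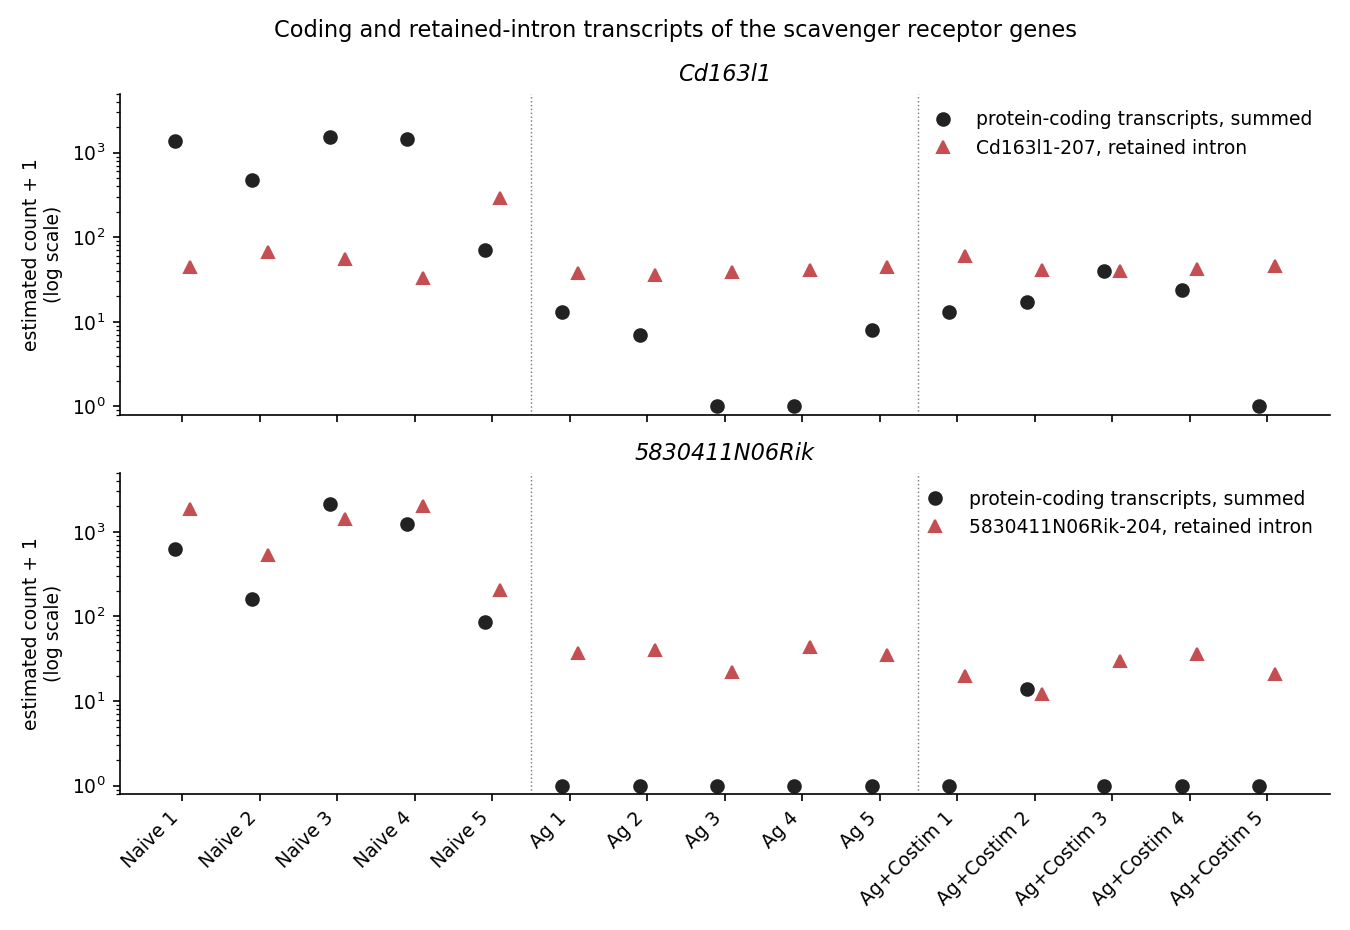
Estimated counts plus 1 on a log axis, one position per library, for the summed coding transcripts (circles) and the leading retained-intron transcript (triangles) of Cd163l1 and 5830411N06Rik. Cd163l1-207 stays at 32 to 66 counts in all libraries but Naive 5 (287), while its coding transcripts have 69 to 1549 counts in Naive libraries and 0 to 39 after antigen.

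The promoters of the scavenger receptor genes and Pdlim4 are shown because these genes were low together after antigen; RefSeq windows (GRCm38.p6, 250 bases before to 50 after the start) were found for 3 of 6 members. They were searched on both strands for the letters TGTGGT as the motif of RUNX factors, CTTTGA as that of the TCF and LEF factors, TTCNNNGAA as that of STAT proteins, AGATAA as that of the GATA family and AACAAT as that of SOX proteins. Matches are in capitals. Positions are chr7:140218017-140218316 (plus strand) for Cd163l1, chr7:140247051-140247350 (plus strand) for 5830411N06Rik and chr11:54068968-54069267 (minus strand) for Pdlim4.
Cd163l1: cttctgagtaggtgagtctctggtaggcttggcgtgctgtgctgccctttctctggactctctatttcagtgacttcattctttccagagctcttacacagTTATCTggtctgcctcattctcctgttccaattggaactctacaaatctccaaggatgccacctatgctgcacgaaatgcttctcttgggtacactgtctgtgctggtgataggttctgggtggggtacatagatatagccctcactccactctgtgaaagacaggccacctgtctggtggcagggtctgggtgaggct
5830411N06Rik: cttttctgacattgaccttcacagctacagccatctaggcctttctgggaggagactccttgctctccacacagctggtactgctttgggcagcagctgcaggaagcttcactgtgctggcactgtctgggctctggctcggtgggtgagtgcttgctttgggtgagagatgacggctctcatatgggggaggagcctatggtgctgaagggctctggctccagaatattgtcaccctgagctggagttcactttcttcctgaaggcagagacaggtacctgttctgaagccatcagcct
Pdlim4: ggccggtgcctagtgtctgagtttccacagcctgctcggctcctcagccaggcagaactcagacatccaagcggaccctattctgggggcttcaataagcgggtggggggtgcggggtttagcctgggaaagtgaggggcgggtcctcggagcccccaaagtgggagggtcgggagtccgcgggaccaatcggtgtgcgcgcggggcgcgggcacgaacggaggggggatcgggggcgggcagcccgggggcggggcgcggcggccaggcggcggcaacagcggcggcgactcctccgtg

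The Cd163l1 window held 1 GATA match, on the opposite strand, and the 5830411N06Rik and Pdlim4 windows held none of the 5 motifs. Over 32851 mouse promoter windows, 11.2% held a GATA match. The G and C content was 50.7%, 55% and 71.7%, against a median of 52.7% over all windows.

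The rest of the gamma chain locus was sparse. Of 7 other annotated Tcrg- genes only Tcrg-V1, a variable gene 4104 bases before Tcrg-C4, passed the filter, with a mean of 2.46 CPM in Naive, 0.827 CPM in Ag and 0.564 CPM with costimulation. It fell in Ag+Costim against Naive (log2 fold change -1.95, edgeR FDR 0.00967) and had -1.53 in Ag against Naive (edgeR FDR 0.0661). Tcrg-V4 had 22, 25, 29, 43 and 6 counts in Naive libraries 1 to 5 and 0 in each of the 10 antigen-treated libraries, at least 32.1-fold lower in Ag and at least 39.1-fold lower in Ag+Costim against 3 counts over the group. Tcrg-C3 had 10 to 43 counts in Naive libraries, 0 to 4 counts in Ag ones and 0 with costimulation, at least 37.2-fold lower in Ag+Costim.

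Markers of gamma-delta T cells had a like pattern in part. The summed level of 9 such genes was 146 to 425 CPM in Naive, 96.1 to 177 in Ag and 80.9 to 119 in Ag+Costim, and Il17a, the defining cytokine of one gamma-delta subset, had 0 counts in all Naive and Ag+Costim libraries. Most of the sum was Trdc, the delta chain constant gene, at 339, 269, 341, 370 and 139 CPM in Naive libraries 1 to 5, lowest in Naive 5 as for most members. Trdc fell in Ag (log2 fold change -1.39, edgeR FDR 0.00614) and in Ag+Costim (-1.44, edgeR FDR 0.00142) and stayed at 73.2 CPM or more in every library.

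By edgeR, 1 of 7 tested gamma-delta markers fell in Ag (Trdc) and 5 of 7 in Ag+Costim against Naive, and none rose. Over all genes, 3.66% and 23.6% were called lower. The medians of the markers were -1.39 and -3.47. Without Ag 3 and Naive 5, a choice made after seeing the data, 4 fell in Ag and 5 in Ag+Costim (all genes, 1327 and 4693 of 17263). Beside Trdc these included Sox13, a transcription factor of interleukin-17 producing gamma-delta cells, Il23r, the interleukin-23 receptor, and Il1r1, the interleukin-1 receptor (log2 fold changes -3.47, -4.15 and -3.99 in Ag+Costim against Naive, edgeR FDR 0.0223, 0.00832 and 0.0153). Sox13 was at 12.2, 4.87, 10.3, 15.8 and 0.593 CPM in Naive libraries 1 to 5, again with Naive 4 highest and Naive 5 lowest. Ccr6 and Blk did not pass in edgeR, with log2 fold changes of 2.02 and 0.78 in Ag against Naive, and DESeq2 called Ccr6 higher there (adjusted p 0.0152). Of markers of other cells, the B cell genes Cd79a and Ms4a1 rose in Ag against Naive (4.78 and 5.04, edgeR FDR 0.0149 and 0.0285). The NK cell genes Ncr1 and Klrb1c fell in Ag+Costim against Naive (-3.67 and -4.19, edgeR FDR 0.0125 and 0.00661). Eomes, the most abundant of the 3 NK cell genes, went the other way and was not called (1.04, edgeR FDR 0.0867). The summed NK cell level had a mean of 59.6 CPM in Naive and 74.2 CPM in Ag+Costim. By edgeR no tested marker of myeloid, erythroid, CD4+ T or NKT and MAIT cells was called in either comparison. Single libraries stood out, however. Ag 3 held 1235 CPM of erythroid markers, against 13.3 to 168 CPM in the other Ag libraries. Naive 5 had the highest Naive sums of myeloid (159 CPM against 9.40 to 74.5), erythroid (149 against 55.3 to 129) and NK cell markers (99.1 against 29.5 to 79.9). Its B cell sum was the lowest (19.9 against 26.7 to 28.0). DESeq2 called the myeloid gene Adgre1 higher in Ag (adjusted p 0.0413), and in Ag+Costim against Naive Adgre1 and Csf1r higher (0.0248 and 0.0331) and 4 hemoglobin genes lower (0.0189 to 0.0332). Whether these cells or their RNA had a part in the members' levels was not tested.

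**Figure D5:**
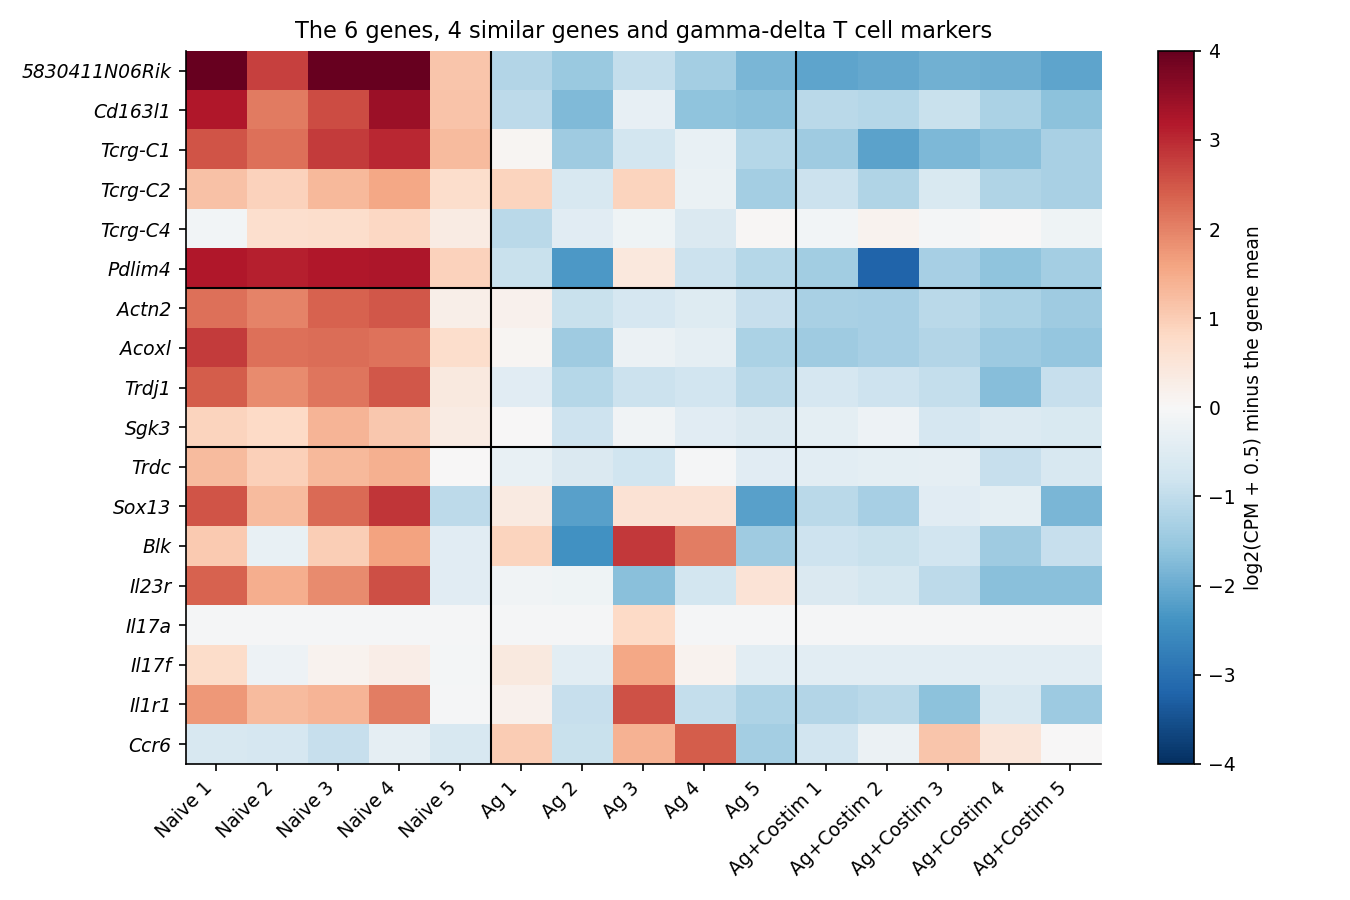
Log2(CPM plus 0.5) minus each gene's mean, in colour from blue (low) to red (high), for the 6 members (top), 4 of the 5 genes most like them (middle) and 8 gamma-delta T cell markers (bottom), in 15 libraries. Naive 1 to 4 are red for most genes, Naive 5 is paler in nearly every row, and Tcrg-C4 and Il17a are close to white throughout.

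Of 16 other SRCR family genes, 10 were tested. Cd6, a T cell surface receptor that binds CD166, fell in Ag (log2 fold change -0.54, edgeR FDR 0.0389) and in Ag+Costim (-0.53, edgeR FDR 0.0149) and kept 327 and 316 CPM. Prss12, a serine protease, fell in Ag+Costim (-4.42, edgeR FDR 0.00142), while Cd5l, known from macrophages, and Ssc4d rose (2.79 and 1.43, edgeR FDR 0.0218 and 0.00502). Cd5, a receptor that restrains T cell receptor signals, had a log2 fold change of 0.16 in Ag and -0.01 in Ag+Costim and was not called. The family median was 0.30 in Ag and -0.27 in Ag+Costim against Naive, beside 0.08 and -0.08 over all genes.

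Among 10 genes of the PDZ-LIM family and the alpha-actinins, 8 were tested. Actn2, an alpha-actinin that cross-links actin filaments, fell in Ag (-2.55, edgeR FDR 0.00319) and in Ag+Costim (-3.29, edgeR FDR 0.000346). Pdlim2, which limits NF-kB and STAT proteins, rose in Ag (0.52, edgeR FDR 0.0148). In Ag+Costim against Naive, Pdlim5 and Actn1 fell (-0.44 and -1.01, edgeR FDR 0.0249 and 0.0320) and Actn4 and Actn3 rose (1.01 and 6.76, edgeR FDR 0.00676 and 0.0240), Actn3 from 0 counts in Naive, so its value depends on the prior count. Pdlim1 and Pdlim7 were not called in any comparison, and the list's median was 0.08 in Ag and 0.04 in Ag+Costim.

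Interleukin-7 receptor signals through STAT5 open the gamma chain locus during T cell development. Il7r, the receptor's alpha chain, fell in Ag (-2.0, edgeR FDR 0.00874) and in Ag+Costim (-2.82, edgeR FDR 0.000954), and so did Socs1, a feedback inhibitor (-1.18 and -1.53, edgeR FDR 0.0284 and 0.00376). Il2rg and Jak1 fell in Ag+Costim (-0.41 and -0.53, edgeR FDR 0.0423 and 0.0126) and had an edgeR FDR of 0.236 and 0.0505 in Ag. Stat5a rose in Ag+Costim (0.28, edgeR FDR 0.0387), and Jak3, Stat5b and Cish were not called. Of the 8 genes, 2 fell and 0 rose in Ag against Naive, and 4 fell and 1 rose in Ag+Costim against Naive. For comparison, 3.66% and 23.6% of all genes were called lower and 3.05% and 21% higher in these comparisons.

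Of 10 factors that bind enhancers of the gamma chain locus or act with them, Lef1 fell and Myb rose in Ag (-1.48 and 1.44, edgeR FDR 0.0165 and 0.0452). In Ag+Costim, Lef1, Tcf7, Ets1 and Runx1 fell (-1.92, -1.35, -0.98 and -1.15, edgeR FDR 0.00214, 0.00920, 0.00850 and 0.00719) and Myb and Tcf3 rose (1.45 and 0.62, edgeR FDR 0.0145 and 0.0252). Runx3, Cbfb, Tcf12 and Gata3 were not called by edgeR. DESeq2 called Runx3 in Ag against Naive (log2 fold change -0.26, adjusted p 0.0247) and Cbfb in Ag+Costim against Naive (0.60, adjusted p 0.0499). Of 12 genes of naive and quiescent T cells, 6 fell in Ag and 12 in Ag+Costim (all genes, 3.66% and 23.6%), and 0 rose. Ccr9, a homing receptor of the gut, had the most negative value (-3.57 and -7.40, edgeR FDR 0.0297 and 0.00152), and Satb1, Klf2 and S1pr1 also fell in both groups.

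This list too was lower in Naive 5, at 3503 CPM against 6375 to 9577 CPM in the other Naive libraries. Of 9 CD3 and alpha-beta receptor constant genes, edgeR called 0 in Ag against Naive and 4 as lower in Ag+Costim against Naive (Cd3g, Cd247, Cd8a and Cd8b1, log2 fold changes -0.61, -0.60, -0.54 and -0.72), and DESeq2 called 1 (Cd8b1, adjusted p 0.0406) and 6 lower. By edgeR, 3.66% and 23.6% of all genes were called lower. In Ag+Costim against Ag, 0 of 62 tested list genes were called by edgeR and 17 by DESeq2. Over all genes, DESeq2 called 811 higher and 4743 lower of 27085 there.

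Tested genes around the members were called in both directions. Members and genes that failed the filter, Tcrg-C3 and Tcrg-V4 among them, were not counted as neighbours. Of 32 distinct tested neighbours, 5 on either side of each member, 1 rose and 2 fell in Ag, and 9 rose and 10 fell in Ag+Costim against Naive, with medians of 0.09 and -0.18. In Ag these are 3.1% and 6.25% of the neighbours, beside 3.05% and 3.66% of all genes. In Ag+Costim they are 28.1% and 31.3% of the neighbours, beside 21% and 23.6% of all genes. The nearest tested gene after Tcrg-C4 was Stard3nl, 4920 bases away, which rose in both (0.75 and 0.84, edgeR FDR 0.0490 and 0.0112). Around the scavenger receptor pair Gm45456, Echs1, Fuom and Syce1 rose in Ag+Costim (log2 fold changes 0.59, 0.71, 1.12 and 3.08), Syce1 from a mean of 0.183 CPM in Naive. Bet1l and Ric8a fell (-0.84 and -0.31). Gm45456 lay 15077 bases after 5830411N06Rik, and Bet1l and Ric8a lay 552658 and 556221 bases after it. The olfactory receptor gene Olfr524, which lies 12303 bases before Cd163l1, had -1.83 in Ag and was not called (edgeR FDR 0.133). Yae1d1 and Elmo1 fell in both comparisons, and near Pdlim4 Rapgef6, an exchange factor for Rap proteins, fell in Ag+Costim (-2.16, edgeR FDR 0.00334).

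The 5 other genes with a mean of at least 5 CPM whose log2 CPM over the 15 libraries was most like the members' mean included Actn2 (Pearson r 0.96), Acoxl (0.95), Trdj1, a delta chain joining segment (0.95), and Sgk3, a serine-threonine kinase (0.95). The points share library and depth, and r is a description. Actn2 had 12.4 to 61.9 CPM in Naive libraries, 5.28 to 11.8 CPM in Ag ones and 3.60 to 4.74 CPM with costimulation. All 5 had their lowest Naive value in Naive 5, as 5 of the 6 members had. Among the members, r with the same mean was 0.98 for 5830411N06Rik and 0.56 for Tcrg-C4, the lowest.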

How the data were processed

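Poly(A) RNA of sorted CD8+ T cells was sequenced as single reads, taken here as 50 bases long, from SMART-Seq v4 and Nextera XT libraries, 5 per group. The paper's methods give a longer length for its single reads. The authors aligned the reads to mm10 with HISAT2 2.1.0 and deposited StringTie 2.1.0 estimated counts per gene and per transcript, as whole numbers without normalization (versions from the submitters' processing notes). The deposited lane table gives a count of sequenced reads per library. The deposited FPKM table was not used, because 2 of its columns, of different groups, were identical.

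Of 81881 gene entries, 55536 matched GENCODE M21 (GRCm38); entries named by a number alone (0.0818% of counts) were left out. CPM values are counts scaled by the library's total of matched counts. Whole-number estimated counts were fitted with edgeR 4.0.16 in R 4.3.3 (filterByExpr, TMM, robust quasi-likelihood, 15 libraries, 1 coefficient per group, two-sided, Benjamini-Hochberg FDR under 0.05 over 17366 genes). The fit was tested on simulated data. Shares of counts per library were compared by a two-sided exact permutation test of 5 against 5 libraries, whose smallest p is 0.00794, and adjusted over 7 tests, in Ag+Costim against Ag only, since the other comparisons chose the members. Intervals of a single share are exact binomial ones at 95%, and these and the floor of 3 counts cover counting error only: the reads carry no molecular identifiers, so several can stem from 1 molecule. The study describes its libraries as biological replicates from separate mice, and the labels do not name the mouse behind each library.

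Alternatives were DESeq2 1.42.0, median-of-ratios size factors, library totals, no filter, the 10 libraries of a comparison alone, replicate number, lane or recorded sex as a term, 1 lane alone, the gamma constant genes summed, coding transcripts alone, and leaving out libraries. Named genes were the members, list genes past the FDR threshold or in lists of at most 10, neighbours past it, and the 5 genes most like the members. The members and lists were chosen with earlier results of these data known. Some genes of the lists are counted but not reported by name here.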

Additional observations from a re-analysis of the deposited data

Results flagged for a closer look

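In 3 cases a value lay far from the other 4 libraries of its group, by the gap to the nearest library divided by the group's range (above 0.71, Dixon's 95% value for 5 samples). Chance gives this in about 1 in 20 groups, and 37 groups were examined. Pdlim4 was at 8.23 CPM in Naive 5, against 39.3 to 43.5 CPM in the other Naive libraries. Cd163l1-201 held 14.8% of the Cd163l1 counts in Naive 5, against 83.3% to 94.8%. Pdlim4 was at 0 CPM in Ag+Costim 2, against 1.03 to 1.34 CPM in the other Ag+Costim libraries, and 3 counts there would be 0.233 CPM. Without Ag 3 and Naive 5 the log2 fold change of Pdlim4 in Ag against Naive was -4.64.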

How the results depend on the processing

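In Ag+Costim against Ag, DESeq2 called 2 members (Tcrg-C1 and Tcrg-C2), as did edgeR without Ag 2 or without Ag 5. Leaving out 1 library thus gave 0 to 2 calls, and the other alternatives gave 0. Over all genes, DESeq2 called 4743 of 27085 lower, and edgeR 1714 of 18092 without Ag 2 and 2817 of 18108 without Ag 5. In the main fit it was 1 of 17366. The filter left Tcrg-C1 and Tcrg-C2 out when the 10 libraries were fitted alone. The median log2 fold change of the members ran from -3.95 to -3.50 in Ag and from -4.62 to -4.24 in Ag+Costim against Naive with 1 library left out. It was -3.09 in Ag with lane as a term, and -5.20 in Ag+Costim with coding transcripts alone, an alternative chosen after seeing the data, as was leaving out Ag 3 and Naive 5 together. With the 3 gamma constant genes summed, the log2 fold change was -1.29 in Ag and -1.09 in Ag+Costim against Naive, and 0.20 in Ag+Costim against Ag. With a minimum of 50 counts, which leaves fewer share tests to adjust over, the shares of Tcrg-C1 (-5.87 points) and of 5830411N06Rik in its pair (-14.7 points) passed, and without Ag 5 so did all 3 gamma constant shares and the pair share.

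With 1 library left out, the share differences in points ran from -7.02 to -3.81 (Tcrg-C1), -10.4 to -4.93 (Tcrg-C2), 8.74 to 17.3 (Tcrg-C4), -17.2 to -12.9 (5830411N06Rik in the pair), -19.1 to -5.06 (5830411N06Rik-204), 9.42 to 21.8 (Cd163l1-201) and 15.2 to 31.1 (Pdlim4-201). Calls among the lists rose from 0 to 17 in Ag+Costim against Ag and from 12 to 24 in Ag against Naive with DESeq2, and to 11 and 25 without Ag 3 and Naive 5. Calls among neighbours rose from 0 to 3 and from 3 to 9 with DESeq2. Calls over all genes rose too. In Ag+Costim against Ag, the main fit called 5 genes higher and 1 lower of 17366. DESeq2 called 811 and 4743 of 27085, and edgeR without Ag 3 and Naive 5 called 498 and 491 of 17263. In Ag against Naive these settings called 529 and 636, 1102 and 1507 of 16835, and 2618 and 1327. Other settings called far fewer in Ag against Naive. With the 10 libraries of the comparison alone it was 0 higher and 6 lower of 16742. With lane as a term it was 0 and 0 of 17366, and without Naive 1 it was 92 and 163 of 18006. The FDRs printed above for single genes in Ag against Naive are those of the main fit. The cause was not tested.

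Whether the replicate numbers pair the libraries was not settled. Of 15 same-numbered pairs, 8 deviated together (correlation above 0.1), and these correlations ran from -0.50 to 0.72. Of the 15 libraries, 5 were best correlated with a library of their own number. The recorded sex was the same for each number in all groups. The main fit took the libraries as unpaired. With the replicate block the median was -3.77 in Ag and -4.41 in Ag+Costim against Naive, 0 members were called in Ag+Costim against Ag, and no share passed (smallest exact p of 5 pairs 0.0625).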
